A study of Mus musculus with 126 samples.

Results

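Sox17, Sox7, Gata4, Gata6, Foxa1, Foxa2, Hnf4a, Dab2 and Pdgfra are genes of the primitive and the definitive endoderm, and their RNA was followed in mouse embryonic stem cells that had lost DNA methylation enzymes, had their histone deacetylases inhibited, or both. These 9 genes were taken by name from a table of read counts for 23420 genes. They were selected on a measured value, since Sox17 was higher with either change and highest with both, so the levels of Sox17 are given as a description without a test, and tests are read for the other 8 genes.

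The wild type was J1, a mouse embryonic stem cell line. TKO cells, labelled as the J1 strain, carry Dnmt1-/-, Dnmt3a-/- and Dnmt3b-/-, and so lack the DNA methyltransferases that set and copy methyl groups on CG dinucleotides. Cells of each genotype were kept for 36 h in Trichostatin A (TSA), an inhibitor of histone deacetylases labelled at 5 ng/µl, or in 0.0033% DMSO, its solvent, and all were grown on gelatin in serum with leukaemia inhibitory factor. The 4 groups are called the control (wild type in DMSO), TSA alone (wild type in TSA), TKO alone (TKO in DMSO) and TKO with TSA (WT DMSO, WT TSA, TKO DMSO and TKO TSA in the plots), and each had 2 libraries described as biological replicates. The other 118 of the 126 samples of the series were not analysed here. Whether the TKO cells are 1 clone is not given in the sources used here, so a difference between genotypes cannot be told apart from a difference between lines.

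Primitive endoderm is the layer that faces the blastocoel of the blastocyst and later forms the visceral and parietal endoderm of the yolk sac, while definitive endoderm arises at gastrulation and lines the gut. In the blastocyst, FGF signalling and Gata6 set the primitive endoderm apart from the epiblast, which embryonic stem cells resemble, and Pdgfra, Gata4, Sox17 and Sox7 mark its cells as they mature. Stem cell cultures in serum are known to hold rare cells with such transcripts. Foxa1, Foxa2, Sox17 and Hnf4a are also used by the definitive endoderm or by the liver and gut that come from it.

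Library totals ran from 13280631 to 15542527 counts, so 3 counts correspond to 0.193 to 0.226 CPM (counts scaled to a common library total), a limit that covers counting error only. Levels below are CPM after TMM scaling, which corrects for unequal composition of the libraries. Dnmt1, Dnmt3a and Dnmt3b were lower in all 4 TKO libraries than in all 4 wild type libraries, and gave -1.78, -3.00 and -3.72 on the log2 scale for TKO in DMSO. The 16 listed factors of the epiblast and pluripotency summed to 2022 to 5159 CPM per library, and none was at 0 in both libraries of a group. Markers of more mature endoderm differed in level: Ttr had at most 1 count in any library, Alb at most 2 and Cer1 at most 4, while Apoe and Lrp2, which other cells also use, were at group means of 367 to 451 and 419 to 795 CPM. The 23 listed visceral endoderm genes summed to 761 to 973, 863 to 1117, 945 to 966 and 1270.3 to 1329.8 CPM in the control, TSA alone, TKO alone and TKO with TSA. Most of each sum came from Apoe and Lrp2, so it says little about the other genes of that list. In bulk RNA, fewer cells of a type and less RNA per cell cannot be told apart.

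The 250 bases upstream of an annotated start are shown for Pdgfra, Hnf4a, Foxa1 and Dab2, because CG dinucleotides are the target of the missing enzymes and these genes differed in how they responded. Sequences are from RefSeq on GRCm38.p6, written 5′ to 3′ on the gene's strand, with each CG in capitals. Windows were found for 5 of the 9 genes, the fifth being Foxa2. Sox17, Sox7, Gata4 and Gata6 had none in the table used.
Pdgfra, chr5:75152001-75152250, plus strand: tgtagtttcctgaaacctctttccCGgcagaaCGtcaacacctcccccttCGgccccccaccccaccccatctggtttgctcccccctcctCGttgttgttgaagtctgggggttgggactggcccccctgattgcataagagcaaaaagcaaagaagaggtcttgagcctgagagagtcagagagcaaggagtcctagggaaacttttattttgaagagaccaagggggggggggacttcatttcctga
Hnf4a, chr2:163546905-163547154, plus strand: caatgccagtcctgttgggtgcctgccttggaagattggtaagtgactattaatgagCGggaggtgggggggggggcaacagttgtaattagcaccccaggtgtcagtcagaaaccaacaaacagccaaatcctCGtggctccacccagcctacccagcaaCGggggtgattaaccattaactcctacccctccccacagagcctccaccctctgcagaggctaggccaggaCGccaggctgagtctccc
Foxa1, chr12:57546112-57546361, minus strand: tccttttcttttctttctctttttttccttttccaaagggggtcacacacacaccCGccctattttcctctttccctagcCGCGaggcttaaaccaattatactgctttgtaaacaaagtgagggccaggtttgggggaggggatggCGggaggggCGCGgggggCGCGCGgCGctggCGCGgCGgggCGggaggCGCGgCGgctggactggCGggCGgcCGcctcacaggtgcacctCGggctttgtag
Dab2, chr15:6299539-6299788, plus strand: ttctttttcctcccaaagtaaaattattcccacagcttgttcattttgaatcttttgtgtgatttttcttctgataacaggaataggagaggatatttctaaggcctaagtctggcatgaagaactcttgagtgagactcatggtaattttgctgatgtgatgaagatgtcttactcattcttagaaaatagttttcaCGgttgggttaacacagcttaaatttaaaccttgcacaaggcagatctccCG

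The Foxa1 window held 21 CG and stood at percentile 83.7 of 32851 such windows of the RefSeq table, whose median was 6. The windows of Pdgfra and Hnf4a held 4 each and that of Dab2 held 2. The starts of these 4 windows lie within 40 bases of the gene start in the count table. A second Hnf4a start lies 40331 bases away from it, with 3 CG in its window, and a second Dab2 start lies 86959 bases away, with 17. Foxa2 has 3 annotated starts, whose windows held 6, 20 and 13 CG.

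These 4 windows were searched on both strands for short strings of letters, none of which contains another. TGTTTAC, a FOXA string, was found 1 time in the Foxa1 window and in 3.17% of all windows. GGGCGG, an SP1 string, was found 3 times there and in 32.7% of all windows. A GATA string (AGATAA or TGATAA) was found 1 time in the Dab2 window and in 16.6% of all windows. No window of the 4 matched ACAAT (SOX, 27.7% of all windows), GCATGCGC (part of the NRF1 motif, 2.26%), CCGGAAG (ETS, 6.91%), AAGATGGC (YY1, 1.56%) or CACGTG (E-box, 6.02%), and those of Pdgfra and Hnf4a matched none of the strings. A match describes the letters and not a bound site.

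Sox17 and Sox7 are SoxF transcription factors, and both act in primitive endoderm and in endothelium. Sox17 (chromosome 1, 4490928 to 4496413, minus strand, 5 exon intervals) had 7 and 6 counts in the control, 40 and 61 with TSA alone, 57 and 40 in TKO alone, and 200 and 219 in TKO with TSA. Its scaled level was 0.493 ± 0.00939, 3.29 ± 1.20, 3.41 ± 0.6996 and 13.6 ± 0.155 CPM (SD, n = 2) in that order. Both libraries of TKO with TSA were above all others, both control libraries were below all others, and the groups with a single change overlapped each other. The ratio of group means was 6.68 for TSA in wild type, 6.91 for TKO in DMSO and 27.7 for both changes. Starting from the other change, the ratio was 4.01 for TSA within TKO and 4.14 for TKO within TSA. These values chose the genes, and no test of them is read.

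Sox7 (chromosome 14, 63943706 to 63950732, plus strand, 2 exon intervals) had 2 and 10 counts in the control, 12 and 5 with TSA alone, 34 and 26 in TKO alone, and 13 and 17 in TKO with TSA. The libraries of TKO alone were the highest, and the wild type groups overlapped each other. Sox7 rose from 0.477 ± 0.472 CPM in the control to 2.11 ± 0.307 in TKO alone (SD, n = 2), a log2 fold change of 2.18 ± 0.57 (SE, edgeR adjusted p 0.0200). Sox7 reached the level of the filter on low counts (0.682 CPM) in 6 libraries. Both libraries of a group reached it only in the TKO groups, where Sox7 is higher. The fit without that filter gave 2.20 (edgeR adjusted p 0.00640). Added to TKO, TSA gave a level of 0.974 ± 0.133 CPM (SD, n = 2) and a log2 fold change of -1.11 ± 0.49 (SE, edgeR adjusted p 0.0695), which was called lower without the filter on low counts (0.0489) and without control replicate 1 or 2 (0.0314 and 0.0298). In wild type TSA gave 0.24 ± 0.69 (SE, edgeR adjusted p 0.788). The higher level in TKO alone was no longer called without control replicate 1 (log2 fold change 1.36, edgeR adjusted p 0.136), TKO alone replicate 1 (2.02, 0.0980) or TKO alone replicate 2 (2.32, 0.0640), and it was larger without control replicate 2 (3.81). Sox18, the other SoxF gene and mainly endothelial, was named after its values were seen. Its level was 1.17 ± 0.163, 0.479 ± 0.100, 2.54 ± 0.111 and 1.24 ± 0.250 CPM (SD, n = 2) in the control, TSA alone, TKO alone and TKO with TSA. The TKO difference in DMSO for Sox18 was 1.11 ± 0.34 (log2, SE, edgeR adjusted p 0.0403) and held in 8 of 16 alternative fits, with adjusted p-values up to 0.222.

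**Figure D1:**
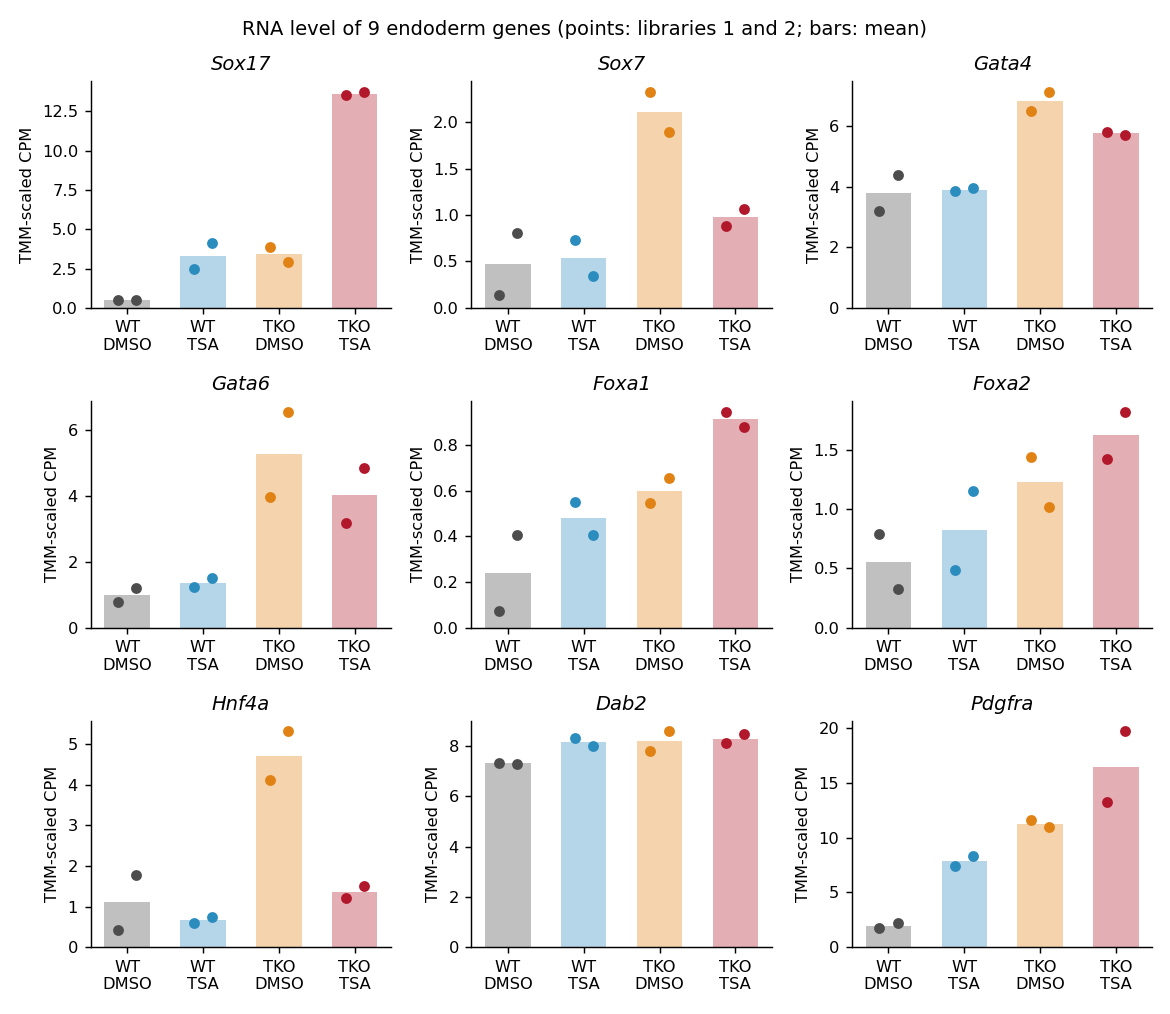
TMM-scaled CPM (linear axis from 0) of the 9 genes in the 4 groups, where points are the 2 libraries of a group and bars their mean. Sox17 and Pdgfra are highest in TKO with TSA (13.6 and 16.5 CPM), Sox7, Gata4, Gata6 and Hnf4a are highest in TKO alone, and Dab2 lies between 7.32 and 8.30 CPM in all groups.

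Gata4 and Gata6 encode zinc finger factors of the primitive endoderm, where Gata6 acts first. Gata6 (chromosome 18, plus strand, 7 exon intervals) had 11 and 15 counts in the control, 20 and 22 with TSA alone, 58 and 90 in TKO alone, and 47 and 77 in TKO with TSA. All 4 TKO libraries were above all 4 wild type libraries, and the TKO groups overlapped each other. Gata6 rose from 1.00 ± 0.305 to 5.26 ± 1.82 CPM in DMSO (SD, n = 2; log2 fold change 2.39 ± 0.39 SE, edgeR adjusted p 0.00171). Under TSA the levels were 1.36 ± 0.193 CPM without and 4.01 ± 1.17 with the TKO change (SD, n = 2; log2 fold change 1.56 ± 0.37 SE, edgeR adjusted p 0.0138). TSA itself gave 0.45 ± 0.45 in wild type and -0.38 ± 0.32 within TKO (log2, SE, edgeR adjusted p 0.421 and 0.319). In DMSO the call held in all 8 fits that each left out 1 library, at 1.99 to 2.73 on the log2 scale. Under TSA it was lost without TSA alone replicate 1 (1.42, edgeR adjusted p 0.108) and without TKO with TSA replicate 2 (1.23, 0.112).

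Gata4 (chromosome 14, 63198915 to 63245260, minus strand, 7 exon intervals) had 45 and 54 counts in the control, 63 and 58 with TSA alone, 95 and 98 in TKO alone, and 86 and 91 in TKO with TSA. Here too the 4 TKO libraries were above the 4 wild type libraries. Gata4 rose from 3.79 ± 0.824 CPM in the control to 6.82 ± 0.446 in TKO alone (SD, n = 2; log2 fold change 0.85 ± 0.23 SE, edgeR adjusted p 0.0229). The TKO difference under TSA was 0.57 ± 0.22 (log2, SE, edgeR adjusted p 0.105). TSA gave 0.04 ± 0.24 in wild type and -0.24 ± 0.22 within TKO (log2, SE, edgeR adjusted p 0.891 and 0.355). The call in DMSO was lost without control replicate 1 (0.62, edgeR adjusted p 0.163), TKO alone replicate 1 (0.91, 0.0692) or TKO alone replicate 2 (0.78, 0.126), and by DESeq2 (adjusted p 0.0640).

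Foxa1 and Foxa2 encode forkhead factors that open chromatin in the endoderm, and both were near the limit of the depth. Foxa1 (chromosome 12, 57540632 to 57546121, minus strand, 2 exon intervals) had 1 and 5 counts in the control, 9 and 6 with TSA alone, 8 and 9 in TKO alone, and 14 and 14 in TKO with TSA. The libraries of TKO with TSA were the highest, and the groups with a single change overlapped. Foxa1 passed the filter on low counts only through TKO with TSA, where its level was 0.913 ± 0.0482 CPM against 0.238 ± 0.236 in the control (SD, n = 2; log2 fold change 1.96 ± 0.62 SE, edgeR adjusted p 0.0173). It was thus tested because of the group in which it is highest, and the fit without the filter gave 1.94 (edgeR adjusted p 0.0214). This call was lost without control replicate 1, which has the single count (1.15, edgeR adjusted p 0.133), without TKO with TSA replicate 1 (1.90, 0.0550), and by DESeq2 (adjusted p 0.101). Without control replicate 2 the combined difference was 3.53, and TSA alone and TKO alone were then called higher for Foxa1 too (2.62 and 2.93, edgeR adjusted p 0.0466 and 0.0492).

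Foxa2 (chromosome 2, 148042878 to 148046969, minus strand, 3 exon intervals) had 11 and 4 counts in the control, 8 and 17 with TSA alone, 21 and 14 in TKO alone, and 21 and 29 in TKO with TSA. Its group means stood in the same order as those of Sox17, but each neighbouring pair of groups overlapped. Foxa2 was at 0.555 ± 0.326 CPM in the control and 1.62 ± 0.283 in TKO with TSA (SD, n = 2; log2 fold change 1.51 ± 0.52 SE, edgeR adjusted p 0.0259). Foxa2 reached the level of the filter on low counts in 6 libraries, and in both libraries of a group only in the TKO groups. The fit without that filter gave 1.49 (edgeR adjusted p 0.0200). Without control replicate 2 the fold change was 1.04 (edgeR adjusted p 0.147), without TKO with TSA replicate 2 it was 1.32 (0.116), and DESeq2 gave an adjusted p of 0.0793. In the 4 comparisons of a single change, the edgeR adjusted p ran from 0.171 to 0.474 for Foxa2 and from 0.185 to 0.327 for Foxa1.

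Hnf4a encodes a nuclear receptor of the visceral endoderm and the liver. Hnf4a (chromosome 2, 163547188 to 163572907, plus strand, 10 exon intervals) had 6 and 22 counts in the control, 10 and 11 with TSA alone, 60 and 73 in TKO alone, and 18 and 24 in TKO with TSA. TKO alone stood above the other groups, which overlapped their neighbours. Hnf4a rose from 1.11 ± 0.958 CPM in the control to 4.71 ± 0.853 in TKO alone (SD, n = 2; log2 fold change 2.12 ± 0.46 SE, edgeR adjusted p 0.00805). Hnf4a too reached the level of the filter on low counts in 6 libraries, and in both libraries of a group only with TKO. Without that filter the value was 2.14 (edgeR adjusted p 0.000821). When TSA was added to TKO it fell to 1.36 ± 0.204 CPM (SD, n = 2; log2 fold change -1.78 ± 0.43 SE, edgeR adjusted p 0.00448). In wild type the TSA difference was -0.66 ± 0.58 (log2, SE, edgeR adjusted p 0.352), and the interaction, the TSA difference in TKO minus that in wild type, was -1.11 ± 0.74 (SE, edgeR adjusted p 0.539). The fall held in all 8 fits that each left out 1 library (-1.95 to -1.58). The rise in TKO alone ran from 1.38 without control replicate 1 to 3.43 without control replicate 2, and its call was lost without TKO alone replicate 2 (1.92, edgeR adjusted p 0.0651). TSA in wild type was called lower for Hnf4a without control replicate 1 (-1.38, edgeR adjusted p 0.0325) and had the opposite sign without replicate 2 (0.65).

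Dab2 encodes an endocytic adaptor that places cargo receptors in primitive and visceral endoderm cells. Dab2 (chromosome 15, 6299789 to 6440709, plus strand, 16 exon intervals) had 103 and 90 counts in the control, 136 and 118 with TSA alone, 114 and 118 in TKO alone, and 120 and 135 in TKO with TSA. Its level was 7.32 ± 0.0399, 8.16 ± 0.203, 8.19 ± 0.556 and 8.30 ± 0.253 CPM (SD, n = 2) in that order, so the control libraries were the lowest by a small margin and the other groups overlapped. None of the 6 comparisons was called for Dab2. The log2 fold change for both changes together was 0.18 ± 0.18 (SE, edgeR adjusted p 0.392). The TKO difference under TSA was 0.02 and turned to -0.01 when libraries were scaled by total counts. Cubn, a receptor that Dab2 helps to take up in visceral endoderm, was named after its values were seen. Cubn rose from 5.34 ± 1.39 CPM in the control to 41.1 ± 0.205 in TKO alone (SD, n = 2; log2 fold change 2.95 ± 0.21 SE, edgeR adjusted p 1.03e-05). It fell to 15.0 ± 0.131 CPM when TSA was added to TKO (SD, n = 2; log2 fold change -1.46 ± 0.18 SE, edgeR adjusted p 6.79e-05).

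Pdgfra encodes a receptor tyrosine kinase for PDGF, present on primitive endoderm and on many mesenchymal cells. Pdgfra (chromosome 5, 75152291 to 75198204, plus strand, 24 exon intervals) had 25 and 27 counts in the control, 122 and 123 with TSA alone, 170 and 150 in TKO alone, and 196 and 313 in TKO with TSA. Its level was 1.99 ± 0.286, 7.91 ± 0.642, 11.3 ± 0.507 and 16.5 ± 4.52 CPM (SD, n = 2) in that order. No groups overlapped, with TKO with TSA highest and the control lowest. TSA raised Pdgfra in wild type by 1.99 ± 0.26 on the log2 scale (SE, edgeR adjusted p 0.000146) and within TKO by 0.55 ± 0.20 (SE, edgeR adjusted p 0.0381). The TKO difference was 2.51 ± 0.26 in DMSO and 1.06 ± 0.21 under TSA (log2, SE, edgeR adjusted p 0.000123 and 0.00591). Both changes together gave 3.05 ± 0.25 (SE, edgeR adjusted p 4.23e-06).

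The interaction for Pdgfra was -1.45 ± 0.34 (SE, edgeR adjusted p 0.0653), so it was not called. It was called without the filter on low counts (-1.47, edgeR adjusted p 0.0163) and by DESeq2 (-1.46, 0.0297), and in 0 of the 8 edgeR fits that each left out 1 library. Within TKO the TSA difference was lost without TKO with TSA replicate 2 (0.23, edgeR adjusted p 0.412), without TKO alone replicate 1 or 2 (0.102 and 0.149) and by DESeq2 (0.0719). The TKO difference under TSA was lost without TKO with TSA replicate 2 (0.75, edgeR adjusted p 0.0625) and without TSA alone replicate 1 (0.98, 0.0605). Markers of mesenchymal and fibroblast cells, where Pdgfra is also found, summed over 16 genes to 689 to 909 CPM in the control, 571 to 816 with TSA alone, 383 to 452 in TKO alone and 267 to 324 in TKO with TSA. Of these markers 14 were tested, and TSA in wild type gave 5 higher and 3 lower (median log2 fold change 0.44), TSA within TKO 11 higher and 1 lower (median 1.89) and TKO in DMSO 1 higher and 8 lower (median -2.01). Over all genes, these comparisons called 27.0%, 30.8% and 9.63% higher and 25.9%, 27.9% and 10.7% lower. Within TKO the sum of the markers was lower with TSA while the median of the single markers was higher. Their part in the levels of Pdgfra was not tested.

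**Figure D2:**
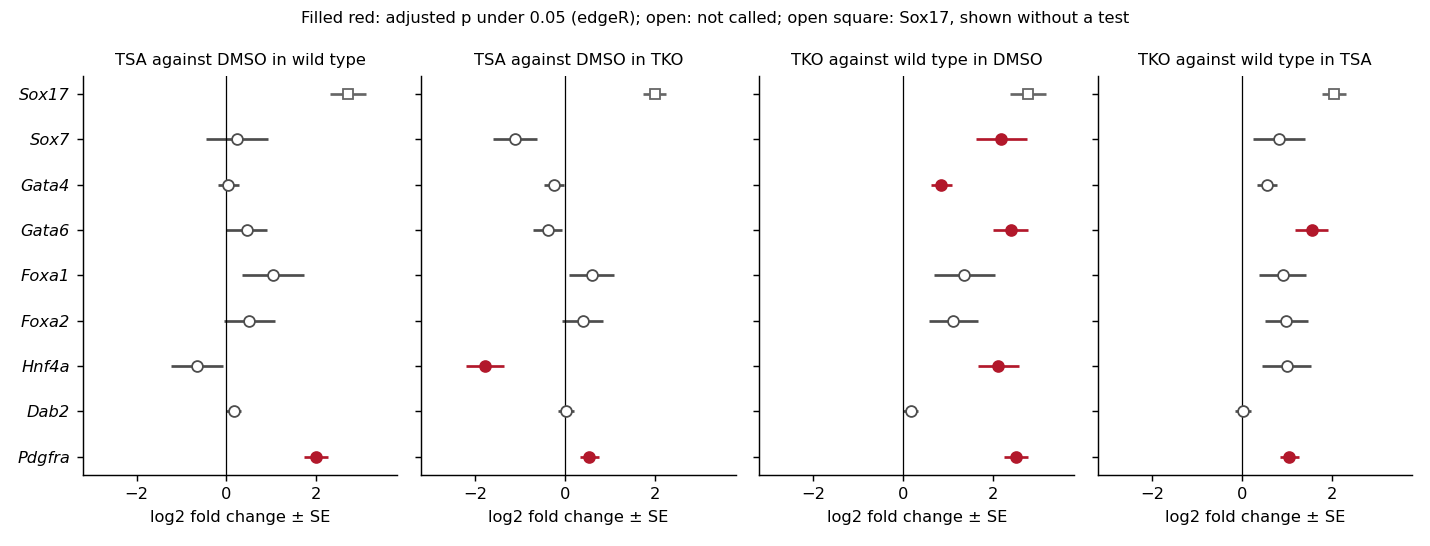
Log2 fold change (horizontal axis, bars are SE from the edgeR fit) of the 9 genes in 4 comparisons, with filled red points for an adjusted p under 0.05, open circles for genes not called and open squares for Sox17, which is shown without a test. Of the 8 tested genes, Pdgfra alone was called in each of the 4 comparisons, and Hnf4a alone was called lower.

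Counted over the 8 tested genes, the comparisons gave different members. Foxa1 had passed the filter on low counts only through TKO with TSA. Sox7, Foxa2 and Hnf4a each reached its level in 6 libraries, and in both libraries of a group only in the TKO groups. These counts are therefore a description and support nothing. TSA in wild type called 1 higher (Pdgfra) and 0 lower, against 27.0% and 25.9% of all 15822 genes tested. TSA within TKO called 1 higher (Pdgfra) and 1 lower (Hnf4a), against 30.8% and 27.9% of all genes. Within TKO, DESeq2 called 0 higher, and an unadjusted p under 0.05 gave 1 higher. Neither TSA comparison called a larger share of these genes than of all genes.

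TKO in DMSO called 5 of the 8 higher (Sox7, Gata4, Gata6, Hnf4a and Pdgfra) and 0 lower, where 9.63% of all genes were called higher and 10.7% lower. Foxa1, Foxa2 and Dab2 were not called. Under TSA, TKO called 2 higher (Gata6 and Pdgfra) and 0 lower, against 10.0% and 8.38% of all genes. The TKO comparisons in DMSO and under TSA share no library, but they share the fit and the genotypes compared, so they are not independent. The count of 5 in DMSO became 3, 3 and 2 without control replicate 1, TKO alone replicate 1 and TKO alone replicate 2. Control replicate 1 had a lower level than replicate 2 for Sox7, Gata4, Gata6, Foxa1, Hnf4a and Pdgfra, and a higher sum of mesenchymal markers (909 against 689 CPM). It had a higher level for Foxa2 (0.785 against 0.324 CPM) and, by small margins, for Dab2 and Sox17. What sets these 2 libraries apart was not tested. The count of 2 under TSA became 0 without TSA alone replicate 1 and 0 without TKO with TSA replicate 2.

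Both changes together called 5 of the 8 higher (Gata4, Gata6, Foxa1, Foxa2 and Pdgfra) and 0 lower, against 31.7% and 30.2% of all genes. Foxa1 passed the filter only through TKO with TSA, and Foxa2 reached it in both libraries of a group only with TKO. This count too is only a description. Sox7 and Hnf4a, called in TKO alone, were at 1.07 ± 0.63 and 0.34 ± 0.52 (log2, SE, edgeR adjusted p 0.158 and 0.586) when both changes were set against the control, and both were called higher without control replicate 2 (2.70 and 1.65, edgeR adjusted p 0.0167 and 0.0263). Gata4 was at 0.61 ± 0.23 (log2, SE, edgeR adjusted p 0.0375) and kept this call in 7 of 16 alternative fits. The count of 5 became 3 without control replicate 1, 3 without TKO with TSA replicate 1 and 3 without its replicate 2, and DESeq2 called 2 (Gata6 and Pdgfra). The interaction called 0 genes higher and 0 lower by edgeR, where 0.879% of all genes were called higher and 0.468% lower. At an unadjusted p under 0.05 it gave 1 lower, Pdgfra, which was also the 1 call of DESeq2, and DESeq2 gave no adjusted p for 3 of the 8. In the other comparisons with 0 genes lower by edgeR, the count lower was also 0 at an unadjusted p under 0.05 and by DESeq2.

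**Figure D3:**
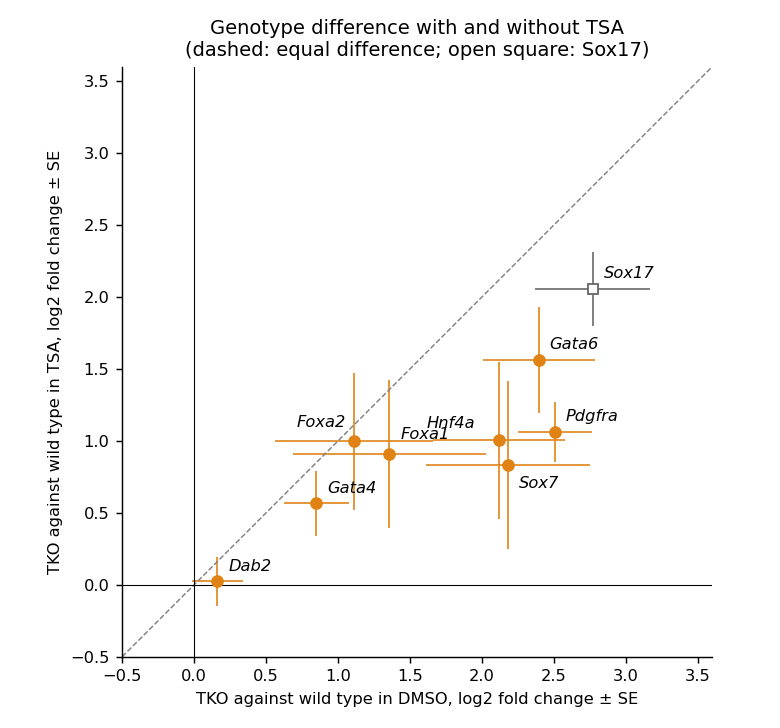
Log2 fold change of TKO over wild type in DMSO (horizontal axis) and under TSA (vertical axis) for the 9 genes, with bars for the SE of each and a dashed line of equal difference. The points of Gata6 (2.39 and 1.56) and Pdgfra (2.51 and 1.06) were called on both axes, and Dab2 lies near 0 on both.

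Set per kilobase of exon, which makes genes comparable, the 9 genes were at low to middling levels. Their percentile among the 23420 genes ran from 29.2 (Foxa1 with TSA alone) to 57.9 (Sox17 in TKO with TSA). In the control the order of mean levels was Dab2 (1.58 ± 0.00861 CPM per kb), Gata4 (1.12 ± 0.243), Gata6 (0.313 ± 0.0954), Pdgfra (0.295 ± 0.0424), Foxa2 (0.261 ± 0.153), Hnf4a (0.254 ± 0.220), Sox17 (0.157 ± 0.00300), Sox7 (0.146 ± 0.145) and Foxa1 (0.0748 ± 0.0741) (SD, n = 2). From Gata6 down, each gene differed from the next by less than the larger SD of the pair. With both changes Sox17 came first at 4.36 ± 0.0495 CPM per kb, ahead of Pdgfra (2.44 ± 0.671), Dab2 (1.79 ± 0.0546), Gata4 (1.70 ± 0.0218) and Gata6 (1.25 ± 0.366) (SD, n = 2). Foxa2 (0.762 ± 0.133), Hnf4a (0.313 ± 0.0469), Sox7 (0.298 ± 0.0407) and Foxa1 (0.287 ± 0.0151) closed that order (SD, n = 2), and the last 3 differed by less than the SD of Hnf4a.

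**Figure D4:**
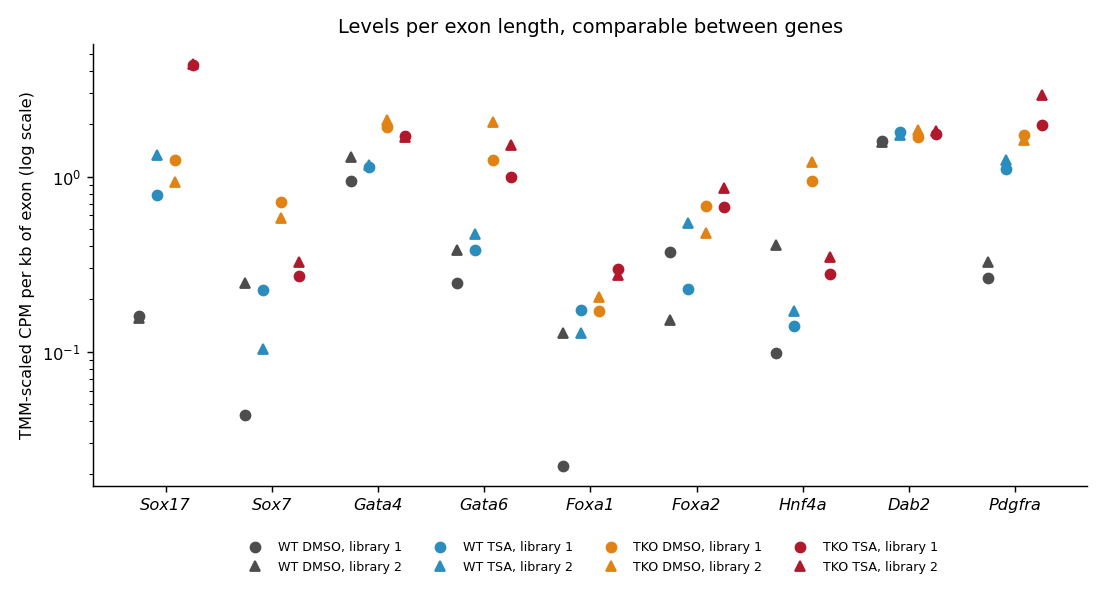
TMM-scaled CPM per kilobase of exon (log axis) for each library of the 4 groups, with circles for library 1 and triangles for library 2. Dab2 and Gata4 lead in the control (1.58 and 1.12 CPM per kb), and Sox17 leads in TKO with TSA (4.36), while Foxa1 has the lowest mean in the control (0.0748).

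Likeness to Sox17 was described by the Pearson correlation of log2 CPM over the 8 libraries, which share their groups and sequencing depth. Among the members it was 0.947 for Pdgfra, which ranked 248 among 15821 genes, 0.805 for Foxa2, 0.801 for Foxa1, 0.752 for Dab2, 0.691 for Gata6, 0.586 for Gata4, 0.432 for Sox7 and 0.214 for Hnf4a. The 5 genes most like Sox17 were Tktl2 (0.993), 4933425L06Rik (0.991), Nptx1 (0.991), Rnf216 (0.990) and Nlrp4c (0.990). Tktl2 was at 2.19 ± 0.680, 17.01 ± 7.56, 19.0 ± 2.12 and 139 ± 4.69 CPM (SD, n = 2) in the control, TSA alone, TKO alone and TKO with TSA. Nlrp4c, of a family with similar copies that make its counts uncertain, was at 2.50 ± 0.708, 22.9 ± 10.2, 22.9 ± 4.99 and 126 ± 13.8 CPM (SD, n = 2). The 9 endoderm genes were left out when these 5 were picked, so their absence from the 5 is not a result. In the ranking of 15821 genes, which included the members other than Sox17, these 5 held ranks 1 to 5.

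Other genes of the early primitive endoderm were read as a list of 13 without the members, all of them tested. For TKO in DMSO 4 were higher and 1 lower, with a median log2 fold change of 0.09 against -0.01 over all genes. The higher ones were Srgn, a proteoglycan core protein, Cubn, Tbx3 (1.18) and Tfpi (0.99), and the lower one was F3 (-1.20), which encodes tissue factor. The lists overlap: Cubn, for example, is also on the visceral endoderm list, and Tbx3 on that of epiblast and pluripotency factors. Srgn rose from 0.832 ± 0.772 to 9.03 ± 0.194 CPM in TKO alone (SD, n = 2; log2 fold change 3.47 ± 0.46 SE, edgeR adjusted p 0.000513) and fell when TSA was added to TKO (-1.29 ± 0.36 SE, edgeR adjusted p 0.00962). With both changes 6 were higher and 3 lower (median 0.47 against 0.0012). Over all genes, 31.7% were called higher and 30.2% lower with both changes, and 9.63% and 10.7% for TKO in DMSO. Fgfr3, an FGF receptor, was at 2.37 ± 0.377, 5.74 ± 0.251, 3.87 ± 1.22 and 13.1 ± 2.07 CPM (SD, n = 2) over the 4 groups, and Rhox5, a homeobox gene of extraembryonic tissues, at 40.9 ± 15.1, 39.7 ± 14.1, 73.0 ± 18.04 and 183 ± 29.0 CPM (SD, n = 2). Against the control, both rose in TKO with TSA (edgeR adjusted p 1.87e-05 and 5.72e-05).

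Of 23 visceral endoderm genes, 14 passed the filter on low counts and were tested. Afp reached its level in both libraries of a group only in TKO with TSA, and Aqp8 only in TKO alone. Each was highest there, so the counts and medians of this list are a description. With both changes 9 were higher and 1 lower (median log2 fold change 1.35 against 0.0012 over all genes), and DESeq2 gave 7 and 0. The edgeR shares over all genes were 31.7% higher and 30.2% lower with both changes, and 9.63% and 10.7% for TKO in DMSO. For TKO in DMSO 2 were higher and 0 lower (median 0.48 against -0.01), the higher ones being Cubn and Aqp8. Afp, which encodes alpha-fetoprotein, had 1 and 1 counts in the control, 1 and 7 with TSA alone, 3 and 10 in TKO alone, and 51 and 83 in TKO with TSA. The libraries of TKO with TSA were above all others (edgeR adjusted p 8.99e-05 against the control and 0.000538 against TKO alone). Afp was thus tested because of the group in which it is highest, and these p-values support nothing. Cited1, a transcriptional coregulator, was at 3.14 ± 1.11, 9.78 ± 0.101, 4.31 ± 1.26 and 19.3 ± 3.54 CPM and Rbp4, a retinol carrier, at 1.27 ± 0.382, 3.79 ± 0.604, 2.17 ± 0.643 and 5.91 ± 1.85 CPM (SD, n = 2). Both rose with TSA in wild type (edgeR adjusted p 0.000673 and 0.00460) and within TKO (4.42e-05 and 0.00296). Trf, the gene called lower (-0.52, edgeR adjusted p 0.0487), was named after its values were seen and kept its call in 5 of 16 alternative fits.

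Parietal endoderm genes, 19 tested, went in both directions. For TKO in DMSO 2 were higher and 6 lower, against 9.63% and 10.7% of all genes (median -0.12 against -0.01). The higher ones encode basement membrane proteins, Lama1 (95.9 ± 5.24 CPM in the control and 342 ± 13.8 in TKO alone, SD, n = 2; log2 fold change 1.84 ± 0.10 SE, edgeR adjusted p 2.69e-06) and Nid1 (0.74). Among the lower ones were the keratin genes Krt8 (291 ± 106 and 30.3 ± 8.95 CPM, SD, n = 2; log2 fold change -3.26 ± 0.29 SE, edgeR adjusted p 3.64e-05) and Krt18 (-3.15), which other epithelia also use. With both changes 7 were higher and 7 lower, against 31.7% and 30.2% of all genes. Thbd, which encodes thrombomodulin, was at 1.54 ± 0.345, 5.04 ± 0.471, 2.05 ± 0.189 and 11.1 ± 3.65 CPM (SD, n = 2), and Snai1, a zinc finger repressor, rose with both changes (2.00 ± 0.45 SE, edgeR adjusted p 0.00241). Of 21 listed genes of the anterior visceral and definitive endoderm, 17 were tested, and with both changes 8 were higher and 3 lower (median 0.60 against 0.0012). Lefty1, an inhibitor of Nodal, and T, a mesendoderm factor, fell (-6.68 and -3.63, edgeR adjusted p 1.48e-06 and 9.08e-05). The gut hormone gene Pyy had 0 and 1 counts in the control and 26 and 44 with TSA alone. It had 2 and 2 in TKO alone and 27 and 51 in TKO with TSA (edgeR adjusted p 0.000131 for both changes). Pyy reached the level of the filter on low counts only with TSA, where it is higher, so this p-value supports nothing.

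Ligands and the other receptor of the PDGF pathway, 5 genes, did not move one way with Pdgfra. TSA in wild type gave 1 higher and 1 lower (Pdgfrb and Pdgfc), and TKO in DMSO gave 0 higher and 1 lower (Pdgfd). Pdgfc, a ligand of Pdgfra, fell with TSA from 23.0 ± 1.26 to 6.82 ± 0.713 CPM in wild type and from 26.0 ± 0.184 to 7.11 ± 1.62 within TKO (SD, n = 2; edgeR adjusted p 3.80e-05 and 1.16e-05). Pdgfa, another ligand, was at 25.4 ± 4.27, 28.9 ± 0.230, 26.6 ± 1.29 and 44.0 ± 2.42 CPM (SD, n = 2). Relatives of the transcription factors gave 1 higher and 0 lower of 8 tested for TKO in DMSO, and 5 higher and 2 lower with both changes. All genes gave 9.63% higher and 10.7% lower for TKO in DMSO, 31.7% and 30.2% with both changes, and 27.0% and 25.9% for TSA in wild type. Gata3 and Gata2, GATA factors of trophoblast and blood, rose with TSA in wild type (1.92 ± 0.43 and 1.65 ± 0.39, log2, SE, edgeR adjusted p 0.00359 and 0.00453), where Gata4 and Gata6 were not called.

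**Figure D5:**
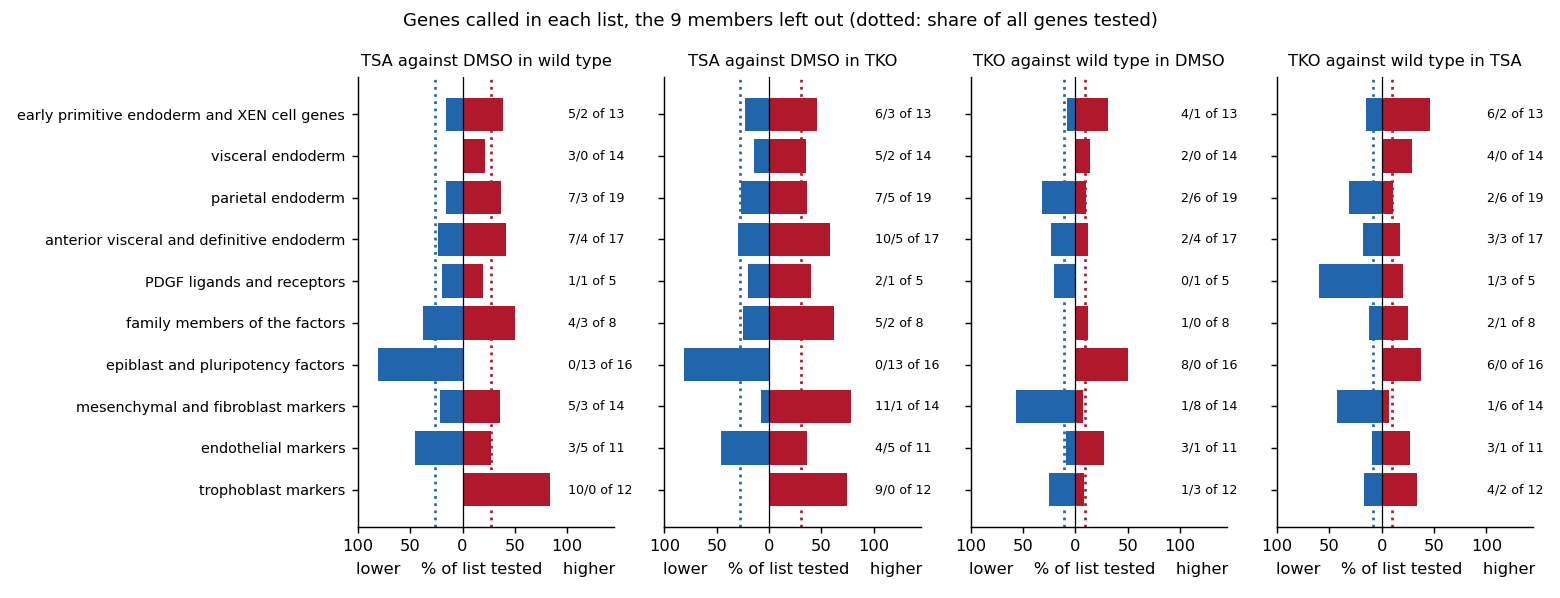
Percent of the tested genes of 10 lists called higher (red, to the right) or lower (blue, to the left) in 4 comparisons, with counts at the right as higher/lower of tested and dotted lines for the share of all genes tested. Early primitive endoderm genes show 4 higher and 1 lower of 13 for TKO in DMSO, and epiblast and pluripotency factors 0 higher and 13 lower of 16 with TSA in wild type.

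Lists of signals and of other cell types were read in the same way, where with both changes 31.7% of all genes were called higher and 30.2% lower. These 3 comparisons called 27.0%, 30.8% and 9.63% of all genes higher and 25.9%, 27.9% and 10.7% lower: TSA in wild type, TSA within TKO and TKO in DMSO. The epiblast and pluripotency factors, 16 tested, were 0 higher and 13 lower with TSA in wild type (median -1.05), 0 higher and 13 lower with TSA within TKO (median -1.16), and 8 higher and 0 lower for TKO in DMSO (median 0.50). That count of 8 became 4 without control replicate 1 and 3 without TKO alone replicate 2. With both changes the list of FGF to ERK genes gave 4 higher and 6 lower of 17 (median -0.02), with the ligand gene Fgf4 at -1.70 and the feedback inhibitor gene Spry2 at -1.97 on the log2 scale (edgeR adjusted p 2.44e-05 and 1.46e-05). The Nodal to Smad list gave 2 higher and 8 lower of 15 (median -0.26). Trophoblast markers gave 10 higher and 1 lower of 12 (median 2.08), and hepatocyte and gut markers 4 higher and 1 lower of 7 (median 1.22). Mesenchymal markers gave 5 higher and 6 lower of 14, endothelial 3 higher and 3 lower of 11, mesoderm 3 higher and 3 lower of 12, and neural 4 higher and 4 lower of 9, where the 4 higher became 2 without control replicate 1. Their part in the levels of the 9 genes was not tested. In all lists, genes with few counts were tested only where some libraries passed the filter, which can be those where they are higher. Counts over the lists are therefore a description.

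The endothelial list bears on Sox17 and Sox7, which that tissue shares. Its 14 genes other than these summed to 151 to 176 CPM in the control, 112 to 118 with TSA alone, 187 to 236 in TKO alone and 122 to 124 in TKO with TSA, and Emcn had no counts in any library. Of the 11 tested, TSA gave 3 higher and 5 lower in wild type and 4 higher and 5 lower within TKO, and TKO in DMSO gave 3 higher and 1 lower. Over all genes the shares called higher and lower were 27.0% and 25.9%, 30.8% and 27.9%, and 9.63% and 10.7% in that order. Their part in the levels of Sox17 and Sox7 was not tested.

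The nearest genes on the chromosome were read beside the members, with distances between gene ends in the count table, and those named here were chosen after their values were seen. Kit, which encodes a related receptor kinase, lies 376783 bases beyond Pdgfra and was at 33.1, 56.9, 55.0 and 80.4 CPM over the 4 groups, with a log2 fold change of 1.28 for both changes (edgeR adjusted p 1.77e-05). Kdr, 735066 bases away, gave 1.58 (edgeR adjusted p 0.000194). Next to Sox17, Mrpl15 (276787 bases) and Lypla1 (311480 bases) gave -0.68 and -0.58 on the log2 scale for TSA in wild type (edgeR adjusted p 0.000283 and 0.00792). Next to Gata4, Neil2 (5390 bases) gave -0.80 and Fam167a (191134 bases) gave 1.95 for TKO in DMSO (edgeR adjusted p 0.00958 and 0.000793). The call of Neil2 was lost without TKO alone replicate 1 or 2, with an adjusted p of up to 0.0695. No exon base of the 9 genes lies in an exon of another gene of the count table.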

How the data were processed

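RNA was measured by sequencing of rRNA-depleted total RNA with a directional kit and paired reads, per the labels' protocols. The authors deposited 1 table of raw read counts per gene with exon positions and summed exon length, and per the submitters' processing notes TopHat2 2.0.13, featureCounts 1.4.5-p1, edgeR 3.22.3 and mm10 were used. Their settings, and whether counting used strand, are not given in the sources used here.

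Library totals were 13280631 to 15542527 counts. The counts of 8 libraries in 4 groups were fitted with edgeR 4.0.16 (R 4.3.3): filterByExpr with a minimum count of 10, which kept 15822 of 23420 genes, TMM scaling, a quasi-likelihood fit over all groups and 6 two-sided contrasts, with Benjamini-Hochberg adjustment over all genes tested and a threshold of 0.05. Common biological variation was 10.3%. With 2 libraries against 2 an exact permutation test cannot go below 0.333, so none was used. The p-values weigh a difference against the spread between libraries of a group, estimated over all 4 groups and partly shared across genes. They cover no variation beyond these libraries. Scripts were tested on simulated data. CPM used TMM-scaled totals, and levels per kb used the deposited exon length. Alternatives were other scalings, DESeq2 1.42.0, other filters, a replicate block, only the groups compared and leaving out each library.

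The members and the 15 gene lists were chosen with earlier results of these data known. From each list the rule named at most 3 genes with the largest change among those called in TKO with TSA against the control at a mean of at least 1 CPM, and in addition the 5 genes most like Sox17, the Dnmt genes, and neighbours. Other genes named from the lists were chosen after their values were seen.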

Additional observations from a re-analysis of the deposited data

Results flagged for a closer look

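For 5 of the list genes described here the TSA difference within TKO differed from that in wild type by the interaction test, and Bmp4, Fgfr2, Nid1 and Plat fall outside the naming rule and were chosen after their values were seen. The lists hold further genes with a called interaction, such as 2 of the 14 mesenchymal markers tested, which are not described. Fgfr2, an FGF receptor gene of the early primitive endoderm list, was at 29.9 ± 1.66, 52.5 ± 4.51, 22.8 ± 0.254 and 93.7 ± 18.9 CPM (SD, n = 2) in the control, TSA alone, TKO alone and TKO with TSA, and its interaction was 1.22 ± 0.20 (log2, SE, edgeR adjusted p 0.0260). Bmp4, a ligand gene of the same list, was at 22.9 ± 2.40, 47.4 ± 2.88, 20.6 ± 2.14 and 20.3 ± 2.27 CPM (SD, n = 2), with an interaction of -1.08 ± 0.20 (SE, edgeR adjusted p 0.0334). Of the parietal endoderm list, Nid1 was at 117 ± 6.44, 119 ± 6.89, 195 ± 17.8 and 108 ± 5.98 CPM (SD, n = 2) and gave -0.87 ± 0.14 (SE, edgeR adjusted p 0.0259). Plat, which encodes a plasminogen activator, was at 17.9 ± 4.62, 53.5 ± 1.94, 6.18 ± 0.519 and 60.7 ± 17.4 CPM (SD, n = 2) and gave 1.72 ± 0.31 (SE, edgeR adjusted p 0.0310). Prdm14, a pluripotency factor, was at 16.4 ± 3.19, 6.03 ± 0.546, 34.7 ± 6.65 and 4.65 ± 0.798 CPM (SD, n = 2) and gave -1.47 ± 0.30 (SE, edgeR adjusted p 0.0445). The interaction was called in 10 of 15 alternative fits for Fgfr2, 9 of 15 for Bmp4, 10 of 15 for Nid1, 10 of 15 for Plat and 8 of 15 for Prdm14, and the highest adjusted p over these fits was 0.147, 0.177, 0.147, 0.158 and 0.197 in that order.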

How the results depend on the processing

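Calls for Pdgfra with TSA in wild type, Hnf4a with TSA within TKO, Gata6 and Pdgfra for TKO in DMSO, and Gata6 and Pdgfra for both changes held in all 16 alternative fits. Over the 9 genes, 384 of 432 values from fits that left out 1 library counted as unchanged. From the other alternatives 395 of 414 values did. For the 8 tested genes this meant the same direction and side of the threshold. For Sox17, with no test read, it meant the same direction and a shift smaller than the SD between libraries. Genes that TSA within TKO called lower numbered 2 of 8 without the filter, with the replicate block and with only the groups compared (Hnf4a and Sox7), against 1, and DESeq2 called 0 higher, against 1. For both changes DESeq2 called 2 higher, against 5. The interaction called 401 genes by DESeq2, 488 without the filter and 633 with the replicate block, against 213, and 1 of the 8 genes (Pdgfra) lower in each of these, against 0. With the replicate block the adjusted p was 0.0201 for that interaction and 0.0458 for Sox7 with TSA within TKO, and no other call of the 8 genes changed. Dab2 changed sign for TSA within TKO without the filter (-0.0156) and with only the groups compared (-4.66e-05), and for TKO under TSA with total counts (-0.0103) and upper quartile scaling (-0.0184). Relative to TMM, these scalings moved the median of all genes to 0.22 and 0.16 for TSA in wild type, 0.19 and 0.11 within TKO and 0.17 and 0.11 for both changes. The cause of these changes was not tested.

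Over the 8 fits that each left out 1 library, genes called ran from 1435 to 3328 for TKO in DMSO, 930 to 3399 under TSA, and 9 to 392 for the interaction. Members called higher ran from 1 to 2 for TSA in wild type, 0 to 1 within TKO, 2 to 6 for TKO in DMSO, 0 to 2 under TSA and 3 to 6 for both changes, and members called lower from 0 to 1 for TSA in wild type and 1 to 2 within TKO. For TSA in wild type the log2 fold change ran from -0.56 to 1.87 for Sox7, -0.16 to 0.28 for Gata4, -0.21 to 1.30 for Foxa2 and -1.38 to 0.65 for Hnf4a. Within TKO it ran from -0.721 to 0.0176 for Gata6 and -0.0490 to 0.0895 for Dab2. It ran from -0.0081 to 0.0540 for Dab2 under TSA and from -0.39 to 1.65 for Hnf4a with both changes, and the interaction from -2.02 to 0.36 for Foxa1 and -0.89 to 0.61 for Foxa2. Where such a fit leaves 1 library in a group, that library is assumed to vary like the other groups. Same-numbered libraries deviated together with correlations of 0.0678 to 0.307 over 6 pairs of groups, and the labels do not say what the number stands for, so the replicate block was kept as an alternative. Depth limits Sox17, Sox7, Foxa1, Foxa2 and Hnf4a, which had 10 or fewer counts in at least 1 control library.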
